A study of Mus musculus with 3 samples.

Results

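The 5 genes described here encode a small signalling system of the TNF superfamily: the ligands BAFF (Tnfsf13b) and APRIL (Tnfsf13), and the receptors TACI (Tnfrsf13b), BAFF-R (Tnfrsf13c) and BCMA (Tnfrsf17). They were taken by name from the 32285 genes of the deposited feature table, and all 5 were present. Their transcripts were counted in single CD45+ cells, that is cells bearing the common leukocyte surface antigen, sorted live from enzyme-digested mouse aortas with the adventitia left on and sequenced from the 3′ end of the transcript. There were 3 libraries, 1 per group, and all are labelled ApoE-/- on C57BL/6J, a deletion of apolipoprotein E that makes mice prone to atherosclerosis. The control group (Ctrl) had no stated supplement, the group labelled HHcy drank water with Hcy at 1.8 g/L during 4 weeks, and the WD group ate western diet over the same time. What HHcy stands for and how many animals went into a library is not given in the labels, while the series title speaks of homocysteinemia.

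BAFF and APRIL are made as membrane proteins that furin-type proteases can cut to soluble cytokines, and in lymphoid tissue they come mostly from myeloid, dendritic and stromal cells. BAFF binds BAFF-R, TACI and BCMA, APRIL binds TACI and BCMA, and the receptors signal through TRAF adaptors to the classical and alternative NF-kB pathways. BAFF-R sustains maturing and naive B cells, TACI is known for class switching and for restraint of B cell numbers, and BCMA supports the survival of plasma cells.

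In GRCm38, Tnfsf13b (ENSMUSG00000031497) lies at chr8:10006467-10039072 on the plus strand and Tnfsf13 (ENSMUSG00000089669) at chr11:69682846-69685784 on the minus strand. Tnfrsf13b (ENSMUSG00000010142) lies at chr11:61126755-61149372 on the plus strand, Tnfrsf13c (ENSMUSG00000068105) at chr15:82221743-82224369 on the minus strand, and Tnfrsf17 (ENSMUSG00000022496) at chr16:11313812-11320074 on the plus strand. Tnfsf13 overlaps the antisense gene Tnfsf13os and a read-through gene, Tnfsfm13, which is not among the counted features. How reads shared by these genes were assigned is not given in the sources used here, so APRIL values carry that uncertainty.

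The 3 receptors differed most sharply in which B-lineage cells held their transcripts, so their promoters are shown here. Each is the 150 bases before the gene's start in RefSeq (GRCm38.p6), read along the gene's strand, at chr11:61126605-61126754 (plus) for Tnfrsf13b, chr15:82224381-82224530 (minus) for Tnfrsf13c and chr16:11313659-11313808 (plus) for Tnfrsf17. Capitals mark matches, on either strand, to 5 motifs: an ETS core (GGAAGT), an E-box of E proteins (CAGGTG), an octamer (ATTTGCAT), an NF-kB site (GGG, any 2 bases, TT, any base, CC) and an interferon response element (GAAA, any 2 bases, GAAA).
Tnfrsf13b: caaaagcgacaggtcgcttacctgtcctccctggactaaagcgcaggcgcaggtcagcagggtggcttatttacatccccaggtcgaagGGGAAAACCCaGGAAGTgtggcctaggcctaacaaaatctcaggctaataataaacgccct
Tnfrsf13c: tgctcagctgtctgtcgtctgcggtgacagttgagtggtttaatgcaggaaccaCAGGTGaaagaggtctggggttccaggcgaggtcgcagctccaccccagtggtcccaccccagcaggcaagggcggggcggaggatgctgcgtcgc
Tnfrsf17: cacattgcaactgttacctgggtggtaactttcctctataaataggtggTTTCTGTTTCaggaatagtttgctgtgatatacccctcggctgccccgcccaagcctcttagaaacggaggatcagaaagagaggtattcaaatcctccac
The Tnfrsf13b window held an NF-kB match on the reverse strand and, after 1 further base, an ETS core on the forward strand. The Tnfrsf13c window held a single E-box, and the Tnfrsf17 window a single interferon response element on the reverse strand. No matches overlapped, and the windows of the 2 ligand genes held none of the 5. Over 27025 promoters of the same length, 13.9% held the ETS core, 10.5% the E-box, 2.55% the NF-kB site, 1.60% the interferon response element and 1.02% the octamer. These matches describe letters only and are neither shown sites nor causes.

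The libraries held 7512 (control), 9753 (labelled HHcy) and 8557 (WD) called barcodes with 66789257, 105180370 and 93164076 UMIs, unique molecules counted once each. After quality limits and removal of barcodes with markers of more than 1 lineage (10.4%, 21.0% and 20.4% of those within the limits), 17187 cells remained, 5408, 6441 and 5338 by library. Between 20 and 24 barcodes were shared by each pair of libraries, 94 of the cells used among them. Apoe was counted at 16.3, 374 and 19.3 CPM over all called barcodes. A 3′ tag outside the deleted part of the gene checks nothing, so these counts do not test the genotype. The high count still stands apart under the shared ApoE-/- label, for a reason not tested. Every direction below therefore compares "the library labelled HHcy". With 1 library per group there is no replicate of any value, no test was made, and all intervals (95%) cover counting error only. Levels are CPM, the gene's UMIs per 1000000 UMIs of all cells of a group in a library, and series of 3 values run control, labelled HHcy, WD. Cell names were rebuilt from marker genes with the 5 members left out of the clustering, and B cells made up 41.4%, 57.4% and 23.3% of cells and macrophages/monocytes 36.9%, 19.1% and 50.6%.

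BAFF transcript was highest, among the named classes, in the few fibroblast-like cells, collagen-expressing stromal cells that a CD45 sort should exclude. Their level was 64.2 CPM in the control library (interval 34.2 to 110; 13 UMIs in 31 cells), 46.0 CPM in the library labelled HHcy (32.7 to 62.9; 39 UMIs in 91 cells) and 129 CPM in the WD library (112 to 148; 208 UMIs in 170 cells). A BAFF UMI was seen in 22.6%, 26.4% and 46.5% of these cells, at median depths of 6129, 6598 and 7954.5 UMIs per cell. In B cells, which served as the background class, the share was 0.313%, 0.406% and 1.29% at 7561, 6447 and 6686 UMIs. Stromal BAFF therefore stood far above background in all 3 libraries. Within each library the fibroblast-like level was above that of macrophages/monocytes, by 4.30-fold (2.26 to 7.48), 2.67-fold (1.85 to 3.77) and 6.43-fold (5.46 to 7.53). Against neutrophil-like cells it was 1.67-fold (0.820 to 3.20), 2.70-fold (1.70 to 4.30) and 5.88-fold (3.84 to 9.39), so the 2 classes were not separated beyond counting error in the control library.

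The WD library's fibroblast-like cells had 2.01-fold (1.15 to 3.84) the BAFF level of the control library's, while the library labelled HHcy differed by a log2 ratio of -0.48 with an interval that spans 0 (-1.42 to 0.55). A change of 1.5-fold in either direction was common in so few cells: 38.1% of 7990 genes passed it between WD and control and 36.9% of 6341 between HHcy and control. Thinning each cell to 1000 UMIs took the WD log2 ratio from 1.01 to 0.36, but left only 2, 4 and 16 BAFF UMIs in the 3 libraries. The thinned shares of cells with a UMI were 8.0%, 4.82% and 8.97%, after 6, 8 and 14 shallower cells were left out. All 31 control cells, 75 of the HHcy cells and 164 of the WD cells lay in 1 cluster, where BAFF stood at 64.2, 65.6 and 135 CPM. Of the WD cells, 10 held 38.0% of these UMIs, and the highest cell had 15.

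All 10 fibroblast markers were detected in the class in each library, and Ptprc, which encodes CD45, stood at 54.4, 28.3 and 25.5 CPM. Fibroblast-like cells with a BAFF UMI were deeper than those without, with medians of 11381, 11813.5 and 10896 UMIs against 5190.5, 3028 and 4218. Their summed macrophage marker list (17 genes) was 519, 546 and 553 CPM, against 579, 517 and 624 CPM in those without. Csf1r, the receptor that defines macrophages, had 0, 3 and 9 UMIs in the BAFF-positive cells. Macrophage markers were thus not richer in the BAFF-positive stromal cells of the control and WD libraries, and differed little in the library labelled HHcy. Barcodes with many stromal and myeloid markers had already been removed, which limits this comparison. The source of the BAFF UMIs was not tested.

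Neutrophil-like cells, short-lived phagocytes and a known BAFF source, held 38.4 CPM (27.3 to 52.5; 39 UMIs), 17.0 CPM (12.2 to 23.1; 41 UMIs) and 22.0 CPM (14.1 to 32.7; 24 UMIs). The control library stood above the others, and a UMI was seen in 14.1%, 7.67% and 7.91% of cells. As a log2 ratio to control, the library labelled HHcy stood at -1.17 (-1.84 to -0.50) and WD at -0.81 (-1.60 to -0.04). These came to -0.47 and -0.39 with cells thinned to 1000 UMIs, from only 7, 11 and 7 BAFF UMIs. The first came to -0.91 under median-of-ratios scaling, which removes the -0.26 at which the median log2 CPM ratio of all genes lay. In this class 37.9% of 6877 genes (HHcy) and 27.1% of 5997 genes (WD) passed 1.5-fold. Of those passing in the HHcy comparison 20.9% were higher, and 45.4% under median-of-ratios scaling. Clusters also differed: cells led by the granule genes Ngp, Ltf and Camp, which mark younger neutrophils, held 44.6, 34.3 and 42.4 CPM. Cells led by Retnlg and Cxcr2 held 30.4, 11.8 and 15.7 CPM, and were 54, 209 and 146 cells against 55, 67 and 33 of the former.

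Macrophages/monocytes held BAFF at 14.9 CPM (13.2 to 16.8), 17.2 CPM (15.0 to 19.8) and 20.1 CPM (18.5 to 21.8), with log2 ratios to control of 0.21 (-0.06 to 0.47) and 0.43 (0.22 to 0.64). The average hid wide differences between their clusters. Foamy-like cells, lipid-laden macrophages known by Trem2, formed 2 clusters with opposite ligands. The cluster led by Nes, Ms4a7 and Igf1 (230, 116 and 775 cells) held BAFF at 41.1, 48.1 and 39.7 CPM, while the one led by Gpnmb, Spp1 and Arg1 (111, 36 and 274 cells) held 2.51, 3.28 and 3.35 CPM, from 4, 2 and 16 UMIs. The first was higher by 16.4-fold (6.21 to 61.2), 14.7-fold (3.87 to 124) and 11.9-fold (7.19 to 21.0) within the 3 libraries. An unnamed macrophage cluster led by Mmp13, H2-M2, Mmp12 and Cd207 had the highest BAFF value of the class in each library, at 69.8, 146 and 79.4 CPM in 50, 51 and 28 cells. Cycling macrophage-like cells, with only 22, 5 and 63 cells, held 44.9, 74.0 and 70.3 CPM. Resident-like macrophages, known by Lyve1 and Folr2, held 13.7, 13.1 and 11.0 CPM, and non-classical monocyte-like cells 4.59, 3.39 and 4.68 CPM. Classical monocyte-like cells were at 5.12, 3.01 and 0.556 CPM, so both monocyte groups lay under the resident-like cells in each library.

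Dendritic cells added little BAFF. The Xcr1 Clec9a type, specialised in cross-presentation, held 5.44, 9.20 and 1.67 CPM, and the Cd209a type, which primes helper T cells, held 0.769, 1.11 and 1.11 CPM. B cells held 0.343, 0.482 and 1.56 CPM, from 7, 15 and 16 UMIs. No BAFF UMI was counted in plasma-like, plasmacytoid dendritic-like, mast-like or NK-like cells, groups of 3 to 53 cells a library. The largest of these, 53 plasma-like cells of the library labelled HHcy, allows up to 2.15 CPM.

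**Figure D1:**
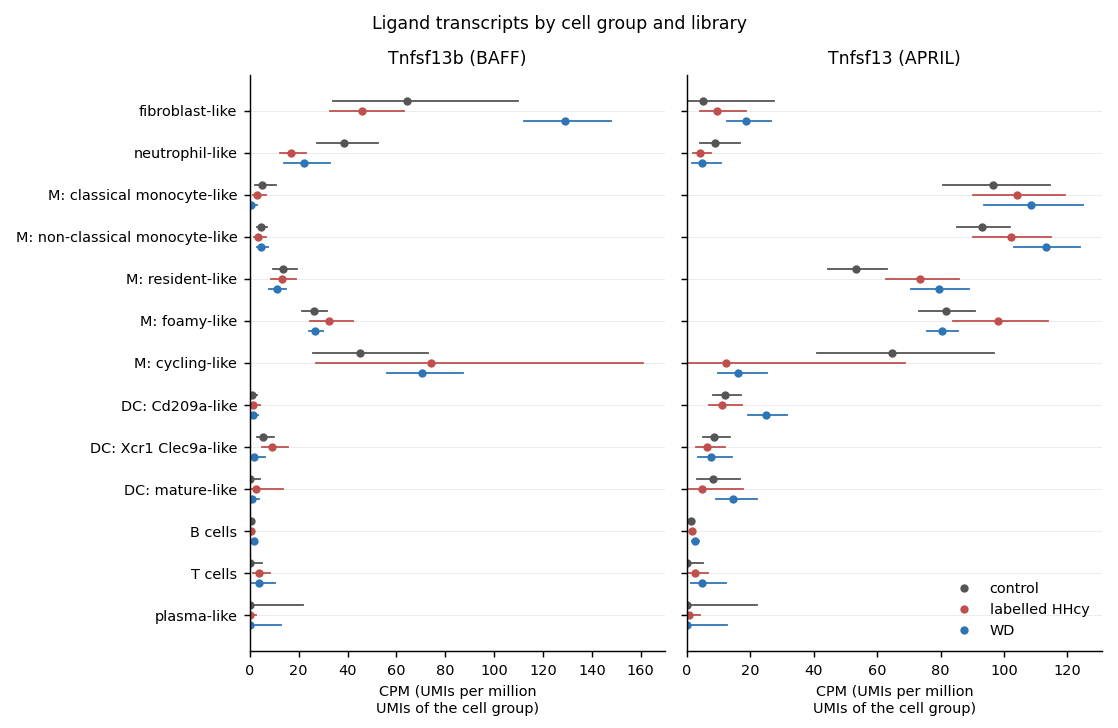
BAFF (left) and APRIL (right) in CPM (x axes) by cell group (y axis; M, macrophage/monocyte subsets; DC, dendritic subsets) for the control, HHcy-labelled and WD libraries; points are the level of 1 library and bars its 95% Poisson interval, which covers counting error only. BAFF was highest in fibroblast-like cells in the control and WD libraries, at 129 CPM in WD. In the library labelled HHcy the 5 cycling macrophage-like cells stood above them, at 74.0 against 46.0 CPM, from 6 UMIs. APRIL peaked in monocyte and macrophage subsets.

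APRIL transcript lay mostly in macrophages/monocytes. Macrophages/monocytes held 83.9 CPM (79.7 to 88.3; 1494 UMIs), 98.3 CPM (92.8 to 104; 1180 UMIs) and 90.5 CPM (87.2 to 94.0; 2747 UMIs). The 3 libraries lay close together, with log2 ratios to control of 0.23 (0.12 to 0.34) and 0.11 (0.02 to 0.20). An APRIL UMI was seen in 38.9%, 44.8% and 44.6% of the cells, and in 6.68%, 8.18% and 7.67% after thinning to 1000 UMIs with 23, 9 and 15 cells left out. B cells showed one in 1.12%, 1.33% and 2.01%. Tnfsf13os, the antisense partner, stood at 13.9, 15.4 and 13.3 CPM in the same macrophages.

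The foamy-like clusters took the opposite order to that for BAFF. The Gpnmb Spp1 foamy-like cluster held APRIL at 139, 197 and 146 CPM and the Nes Ms4a7 cluster at 45.8, 45.5 and 44.6 CPM, a difference of 3.03-fold (2.41 to 3.82), 4.33-fold (3.10 to 6.12) and 3.27-fold (2.88 to 3.71). Classical monocyte-like cells held 96.6, 104 and 108 CPM and non-classical ones 93.1, 102 and 113 CPM, where BAFF was scarce. An unnamed cluster led by Prg4, Alox15 and Saa3, the first of which is known from serous-cavity macrophages, held 153, 171 and 180 CPM. The Mmp13 cluster that led for BAFF held 50.6, 25.3 and 30.6 CPM, and a cluster led by Retnla and Lyz1 held 19.4, 23.1 and 21.5 CPM. In all 3 libraries the Prg4 cluster thus lay far above the Mmp13 and Retnla clusters.

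**Figure D2:**
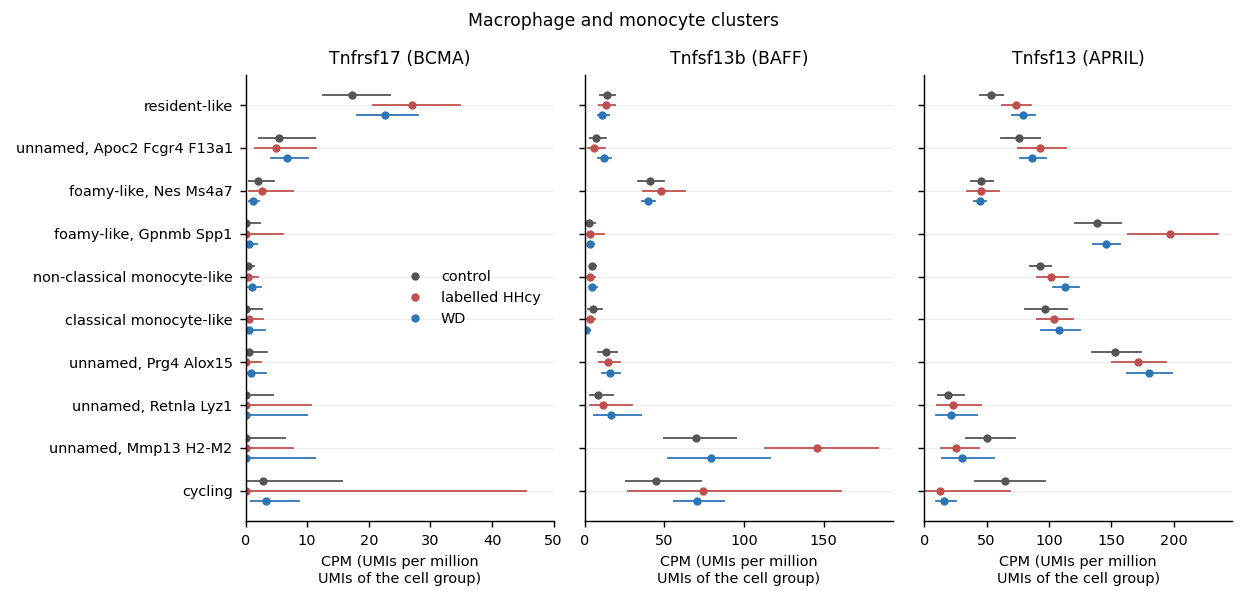
BCMA, BAFF and APRIL in CPM (x axes) in 10 macrophage and monocyte clusters (y axis) for each library; points are the level of 1 library and bars its 95% Poisson interval. The foamy-like cluster of Nes and Ms4a7 was high for BAFF and the one of Gpnmb and Spp1 high for APRIL, while BCMA was highest in resident-like cells.

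Resident-like macrophages differed in APRIL between libraries by more than counting error. They held 53.3, 73.6 and 79.4 CPM. Against control, the library labelled HHcy stood at a log2 ratio of 0.47 (0.13 to 0.81) and WD at 0.58 (0.28 to 0.88), both just under 1.5-fold. The few cycling macrophage-like cells (22, 5 and 63) held APRIL at 64.5 CPM (40.9 to 96.8), 12.3 CPM (0.312 to 68.7) and 16.1 CPM (9.69 to 25.1), from 23, 1 and 19 UMIs, so control stood above WD. In the Cd209a dendritic-like cells APRIL was at 11.9, 11.1 and 24.8 CPM, a WD log2 ratio of 1.06 (0.42 to 1.72). It came to 0.50 with the libraries clustered separately, and to 0.16 with cells thinned, which left 2 UMIs each in control and WD. Over all conventional dendritic-like cells the WD log2 ratio of 0.86 (0.37 to 1.36) came to -0.37 on thinning. That left 6 UMIs in control and 4 in WD, too few to read a direction. In that class 14.4% of 10502 genes passed 1.5-fold. Fibroblast-like cells held 4.94, 9.44 and 18.6 CPM (1, 8 and 30 UMIs), and neutrophil-like cells 8.86, 4.15 and 4.58 CPM. Endothelial-like cells had 0 UMIs in the control library, which allows up to 61.2 CPM, and 49.5 and 34.0 CPM in the others from 10 and 9 UMIs.

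Which cells supplied the ligand transcripts depended on their number as well as their level. Macrophages/monocytes held 73.5%, 61.6% and 68.9% of BAFF UMIs and 89.3%, 87.6% and 90.0% of APRIL UMIs. Fibroblast-like cells were 0.573%, 1.41% and 3.18% of cells but held 3.59%, 11.6% and 23.5% of BAFF UMIs. Neutrophil-like cells, at 3.53%, 6.27% and 4.74% of cells, held 10.8%, 12.2% and 2.71%. Stromal cells thus outweighed neutrophils as a BAFF source in the WD library and not in the control library, on shares that the CD45 sort sets. With the barcodes of mixed lineage kept, the macrophage share was 61.5%, 40.3% and 53.4% of BAFF UMIs and 74.8%, 46.4% and 61.3% of APRIL UMIs. Over all called barcodes BAFF stood at 7.22, 6.41 and 13.4 CPM and APRIL at 33.1, 29.0 and 50.8 CPM, while macrophages/monocytes were most numerous in the WD library and the levels within them differed far less.

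**Figure D3:**
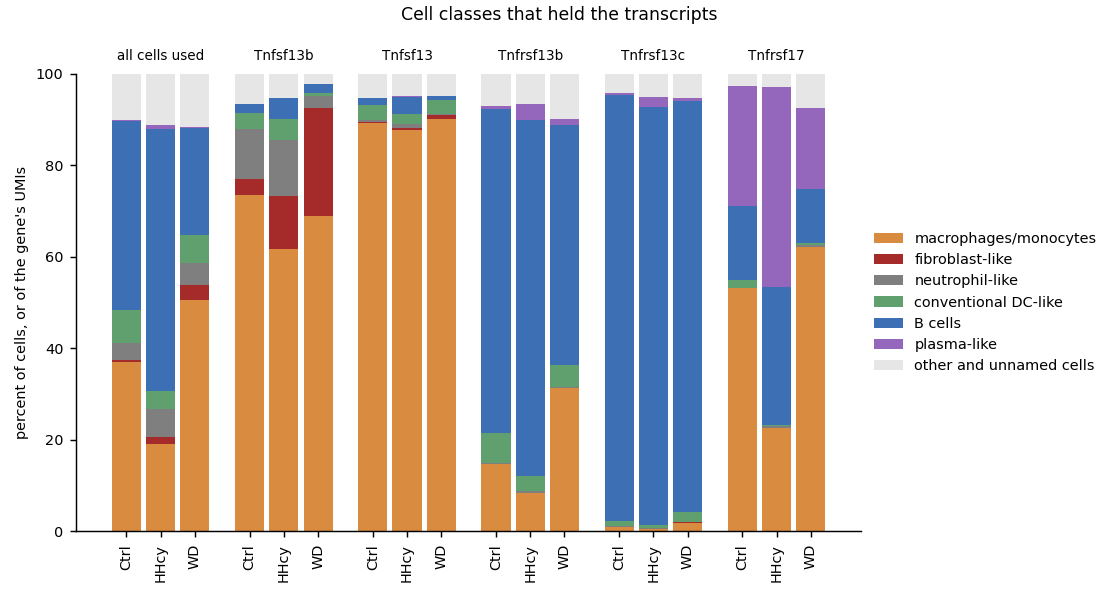
Stacked bars give, for each library (x axis), the percent of cells used and the percent of each gene's UMIs (y axis) that lay in each cell class. Macrophages/monocytes held 61.6% to 90.0% of the ligand UMIs, fibroblast-like cells 23.5% of BAFF UMIs in WD, and B cells most TACI and BAFF-R UMIs.

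TACI transcript was present in every B-lineage group and in part of the myeloid cells. B cells held 120 CPM (115 to 125; 2446 UMIs), 102 CPM (98.3 to 105; 3169 UMIs) and 132 CPM (125 to 139; 1355 UMIs). A TACI UMI was seen in 55.7%, 47.1% and 56.0% of B cells and, thinned, in 11.6%, 8.69% and 12.7% with 8, 3 and 5 cells left out. Fibroblast-like cells, which should lack it, showed 2 UMIs in all, in 1 cell of the WD library. Over all B cells the library labelled HHcy stood at a log2 ratio to control of -0.24 (-0.31 to -0.16), and WD at 0.14 (0.04 to 0.23). With both libraries given the same mix of B cell subsets these became -0.02 and 0.08, so the first came close to 0.

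Among subsets, immature-like B cells (Vpreb3, Cd93) had the highest TACI level, at 191, 219 and 208 CPM. B1-like cells, innate-like producers of natural antibody, held 121, 127 and 125 CPM, and naive follicular-like cells (Fcer2a, Cr2) held 99.6, 83.3 and 109 CPM. Immature-like over naive was 1.92-fold, 2.63-fold and 1.91-fold, and B1-like over naive 1.22-fold, 1.53-fold and 1.15-fold. Naive cells were themselves uneven, with 2 clusters at 139, 127 and 140 CPM and at 75.8, 63.0 and 86.2 CPM. The lower of them held 465, 1765 and 289 cells, most of them from the library labelled HHcy. The naive log2 ratio of -0.26 (-0.42 to -0.10) in that library turned to 0.13 with the libraries clustered separately. A TACI UMI was seen in 37.7%, 39.0% and 38.8% of naive cells, an order that does not follow the CPM. Germinal centre-like cells (S1pr2, Mki67) held 106, 99 and 127 CPM, and plasma-like cells 154, 102 and 109 CPM, from 26, 143 and 32 UMIs.

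Outside the B lineage, TACI was highest in plasmacytoid dendritic-like cells, the interferon producers. In the library labelled HHcy they held 190 CPM (150 to 238), with a UMI in 26 of 34 cells, and in WD 308 CPM (193 to 466), with a UMI in all 6 cells. The control library had only 3 such cells and 1 UMI, so most of this group is 1 library. Ms4a1, which encodes the B cell antigen CD20, had 1 UMI in the 26 positive cells. Cd209a dendritic-like cells held TACI at 59.9, 54.5 and 36.3 CPM, Xcr1 Clec9a cells at 32.2, 20.5 and 14.2 CPM, and mature-like cells (Ccr7, Fscn1) at 2.30, 9.71 and 6.91 CPM. The conventional dendritic subsets kept that order in all 3 libraries. The WD log2 ratio was -0.72 (-1.10 to -0.35) in Cd209a cells, and -0.10 with cells thinned. Macrophages/monocytes held 28.6, 28.7 and 26.6 CPM with a UMI in 18.5%, 21.4% and 22.3% of cells, against 9.84, 6.65 and 4.58 CPM in neutrophil-like cells. In macrophages with a TACI UMI the summed B cell marker list (11 genes) was 98.3, 112 and 72.0 CPM, against 105, 141 and 78.9 CPM in those without. B cell markers were thus not richer in the TACI-positive macrophages of any library. Barcodes with many myeloid and B cell markers had already been removed, which limits this comparison. The source of the TACI UMIs was not tested.

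**Figure D4:**
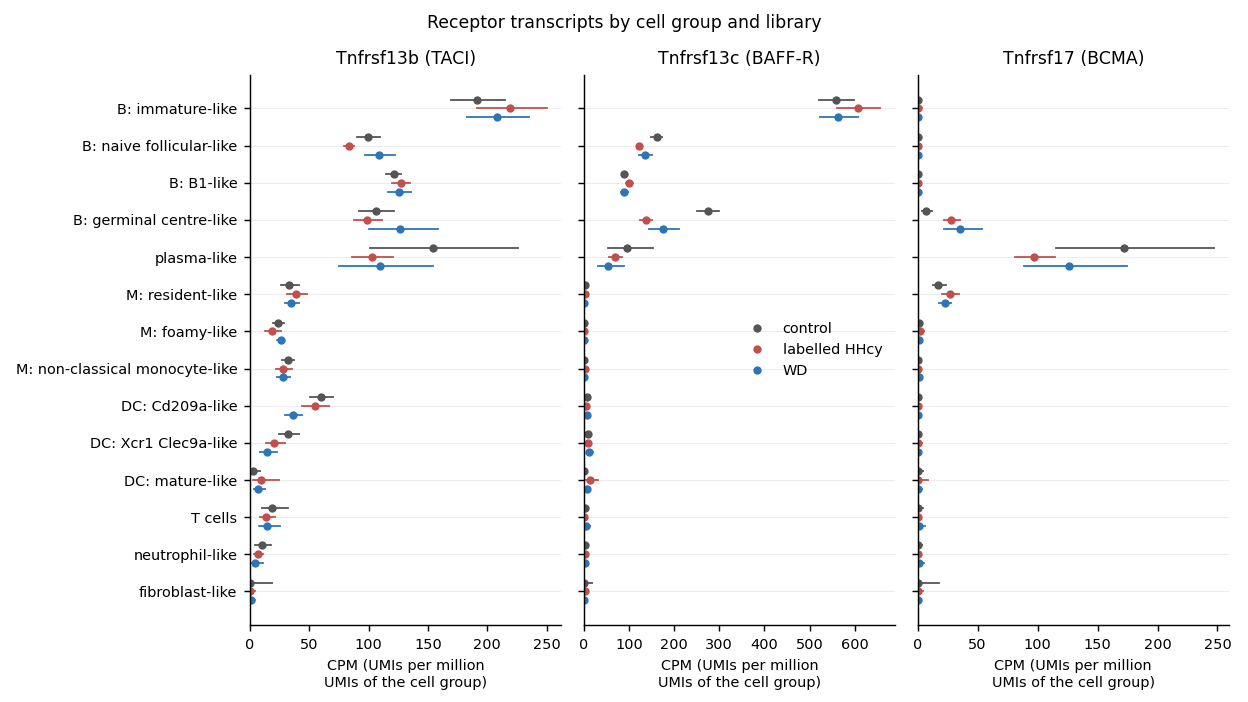
TACI, BAFF-R and BCMA in CPM (x axes, each with its own range) by cell group (y axis) for each library; points are the level of 1 library and bars its 95% Poisson interval. TACI spread over B, plasma-like and dendritic groups, BAFF-R peaked in immature-like B cells at 558 to 607 CPM, and BCMA in plasma-like cells at 96.8 to 172 CPM.

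BAFF-R transcript was nearly confined to the B lineage, with 92.9%, 91.3% and 89.7% of its UMIs in B cells. Their level was 157 CPM (151 to 162), 136 CPM (132 to 140) and 168 CPM (160 to 176), with a UMI in 53.6%, 52.9% and 54.8% of cells and, thinned, in 14.6%, 12.5% and 16.1%. T cells showed a BAFF-R UMI in 1.47%, 1.01% and 3.52% of cells, and macrophages/monocytes in 1.65%, 2.19% and 1.33%. Conventional dendritic-like cells showed one in 6.87%, 9.31% and 8.33%, at 7.46, 8.56 and 7.68 CPM. Plasmacytoid dendritic-like cells of the library labelled HHcy held 17.3 CPM, with a UMI in 6 of 34 cells. Over all B cells the log2 ratio for the library labelled HHcy was -0.21 (-0.27 to -0.14), and -0.18 with subsets given the same mix. For WD it was 0.10 (0.01 to 0.18), and -0.11 with the same mix.

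Immature-like cells held by far the most BAFF-R, at 558, 607 and 564 CPM, and 79.0%, 88.2% and 82.5% of them had a UMI. Naive follicular-like cells held 161, 123 and 136 CPM, which put immature-like cells 3.46-fold, 4.94-fold and 4.13-fold above them. B1-like cells held 89.1, 101 and 89.5 CPM and were the lowest of the named B subsets in each library. Germinal centre-like cells held 275 CPM from 530 UMIs in the control library, 137 CPM from 388 UMIs in the library labelled HHcy and 176 CPM from 108 UMIs in WD. Both ratios to control were below 0, at a log2 ratio of -1.0 (-1.19 to -0.81) and -0.64 (-0.96 to -0.34). The first stayed between -0.84 and -1.03 under median-of-ratios scaling and thinning, while the second came to -0.22 with cells thinned and -0.24 with mixed-lineage barcodes kept. Naive cells differed by -0.39 (-0.52 to -0.26) in the library labelled HHcy, and by 0.03 with the libraries clustered separately. Plasma-like cells held 95, 69.5 and 54.7 CPM, from 16, 97 and 16 UMIs.

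The balance of the 2 receptors separated the B subsets. Since 3′ UMIs of different genes are not a common scale, only the ratio between groups is read. TACI UMIs per BAFF-R UMI were 1.36 (1.26 to 1.47), 1.26 (1.15 to 1.38) and 1.40 (1.24 to 1.58) in B1-like cells. They were 0.618, 0.678 and 0.798 in naive cells, and 0.343, 0.361 and 0.369 in immature-like cells. This order held in all 3 libraries. The naive ratio was higher in WD (0.682 to 0.932) than in control (0.545 to 0.699), with intervals that overlap slightly. Among the named B subsets, germinal centre-like cells differed most between libraries. They had 0.387 (0.328 to 0.455) in the control library and 0.722 in both others (0.617 to 0.844 and 0.533 to 0.975). Part of this lay in 19 cells with a BCMA UMI, and without them the ratio was 0.358, 0.486 and 0.566. Plasma-like cells had 1.62, 1.47 and 2.0, Cd209a dendritic-like cells 7.43, 8.91 and 5.44, and macrophages/monocytes 15.0, 12.8 and 21.8.

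BCMA transcript marked 3 groups, of which plasma-like cells had the highest level. They held 172 CPM (115 to 247; 29 UMIs in 4 of 11 cells), 96.8 CPM (81.1 to 115; 135 UMIs in 32 of 53 cells) and 127 CPM (89.1 to 174; 37 UMIs in 8 of 12 cells). All 9 plasma cell markers were detected in this class in each library. Single cells weighed heavily, with up to 15, 18 and 10 BCMA UMIs in 1 cell. Against control the library labelled HHcy stood at a log2 ratio of -0.83 (-1.42 to -0.20), or -0.60 under median-of-ratios scaling, and -0.44 (-1.19 to 0.31) in WD. Per 1000 UMIs of Jchain, the joining chain of secreted IgM and IgA, plasma-like cells held 5.99, 4.07 and 3.81 BCMA UMIs. In the HHcy comparison the median log2 CPM ratio of all genes in these cells was -0.23, which that scaling removes.

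Immature-like B cells had no BCMA UMI in any library, which allows up to 2.09, 2.94 and 2.46 CPM, and B1-like cells held 0.245, 0.495 and 0.383 CPM. Germinal centre-like cells stood at 7.25, 28.3 and 35.8 CPM, but these UMIs (14, 80 and 22) came from 3 of 83, 12 of 88 and 4 of 28 cells. The log2 ratios to control were 1.96 (1.13 to 2.90) and 2.30 (1.27 to 3.38), and rest on those 19 cells. These cells were deeper than the rest of the group, with medians of 31522, 54088.5 and 48338.5 UMIs against 17394, 23385.5 and 12733.5. Their genes also differed from the rest. Jchain stood at 10470, 9444 and 8355 CPM in them, against 491, 855 and 539 CPM in the germinal centre-like cells without BCMA. Prdm1, which drives plasma cell differentiation, was at 135, 130 and 31.0 CPM against 5.47, 27.9 and 26.1 CPM. Mki67, a marker of cycling cells, was at 685, 792 and 511 CPM against 603, 624 and 738 CPM. BAFF-R was lower where BCMA was seen, at 48.3, 65.9 and 129 CPM against 287, 158 and 197 CPM, and TACI higher, at 164, 176 and 160 CPM against 103, 76.7 and 112 CPM.

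The third group with BCMA was resident-like macrophages. They held 17.4 CPM (12.6 to 23.4; 43 UMIs), 27.1 CPM (20.7 to 34.9; 60 UMIs) and 22.6 CPM (18.1 to 27.9; 86 UMIs), against 1.04, 1.02 and 1.70 CPM in all other macrophages/monocytes. Within the 3 libraries that was a difference of 16.6-fold (9.18 to 31.6), 26.5-fold (13.5 to 58.1) and 13.3-fold (9.19 to 19.6). A BCMA UMI was seen in 8.69%, 13.5% and 14.1% of the cells at median depths of 4922, 6158 and 6666 UMIs, and in 2.47%, 2.61% and 2.66% after thinning, with 3, 2 and 0 cells left out. Neutrophil-like cells, which should lack it, had 0, 1 and 1 UMIs at median depths of 4454, 4964 and 3918, and 0 of 191 cells allows a share of up to 1.57% of cells with a UMI, which does not limit the cells expressing the gene. No macrophage held more than 3 UMIs. An unnamed cluster led by Apoc2, Fcgr4, F13a1, Ccl8 and Folr2, which shares F13a1 and Folr2 with the resident marker list, held 5.45, 4.89 and 6.67 CPM. Against control the library labelled HHcy stood at a log2 ratio of 0.64 (0.05 to 1.24) and WD at 0.38 (-0.16 to 0.94). These came to 0.08 and 0.11 with cells thinned, from 11, 9 and 14 UMIs.

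Markers of plasma cells were measured beside this signal. Sdc1, the plasma cell surface antigen CD138, had 0 UMIs in the BCMA-positive resident-like cells of all 3 libraries, and Mzb1 had 0, 1 and 1. Jchain stood at 7.10, 17.4 and 6.35 CPM in the positive cells and at 2.73, 46.5 and 5.36 CPM in the others. It was thus higher in the positive cells of the control and WD libraries and lower in those of the library labelled HHcy. The summed plasma marker list (9 genes, of which 3, 2 and 2 were at 0) was 387, 307 and 267 CPM in the positive cells and 329, 349 and 281 CPM in the others. BCMA UMIs per 1000 Jchain UMIs were 5375, 645 and 4095 in resident-like cells, against 3.81 to 5.99 in plasma-like cells, so the 2 transcripts did not keep 1 ratio across classes. All resident-like cells together had only 8, 93 and 21 Jchain UMIs, beside 43, 60 and 86 of BCMA. The size of these ratios, and the Jchain levels above, are therefore imprecise. In the positive cells Cd163, a scavenger receptor, stood at 1557, 1485 and 1419 CPM, and Lyve1, a hyaluronan receptor, at 1015, 1190 and 894 CPM. Both belong to the marker list that named these cells, so high values were set by the naming. The source of the BCMA UMIs in resident-like cells was not tested. By number, macrophages/monocytes held 53.2%, 22.7% and 62.1% of all BCMA UMIs and plasma-like cells 26.1%, 43.7% and 17.5%.

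Differences between libraries were then counted within a class over the members. Of the 5 genes, those with at least 20 UMIs over both libraries were counted as past the fold when their CPM ratio was at least 1.5-fold in either direction. In B cells 1 of 5 was past it in the library labelled HHcy, BCMA at 3.38-fold (2.03 to 5.96; 2.99 against 0.883 CPM), where 15.1% of 12475 genes were past it and 6.02% higher. Germinal centre-like cells held 80 of the 93 BCMA UMIs behind that value. In B cells of WD 3 of 5 were higher, BAFF at 4.54-fold, APRIL at 2.06-fold and BCMA at 2.76-fold, all from 16 to 26 WD UMIs, where 9.14% of 11798 genes were past the fold and 4.53% higher. Germinal centre-like cells held 22 of these 25 BCMA UMIs. The summed macrophage marker list (17 genes, 0 of them at 0) in B cells was 289, 350 and 477 CPM, with Lyz2 at 101, 122 and 148 CPM. It was thus also highest in WD, and its part in the BAFF and APRIL values was not tested. The medians of the members were 0.39 and 1.04 on the log2 scale against -0.03 and 0.00 for all genes. In macrophages/monocytes 1 of 5 was higher in the library labelled HHcy, BCMA at 1.76-fold (1.23 to 2.53), where 10.2% of genes were past it and 4.71% higher. In WD 1 was lower, BAFF-R at a ratio of 0.638 (0.390 to 1.05), where 11.6% were past it and 5.3% lower. The B cell marker list (11 genes, 0 of them at 0) in these cells was 103, 133 and 76.8 CPM and Ms4a1 7.41, 10.7 and 4.65 CPM, so B cell genes were lowest in WD too, and their part in the BAFF-R value was not tested. In plasma-like cells 2 of 3 with enough UMIs were lower in the library labelled HHcy, BCMA and TACI (log2 ratio -0.59, or -0.36 and no longer past the fold under median-of-ratios scaling), but 48.4% of 4394 genes passed there and 24.8% were lower. Of those that passed 48.7% were higher, or 65.0% under median-of-ratios scaling. In WD it was 1 of 3, BAFF-R, where 36.9% of 1704 genes passed and 18.8% were lower.

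**Figure D5:**
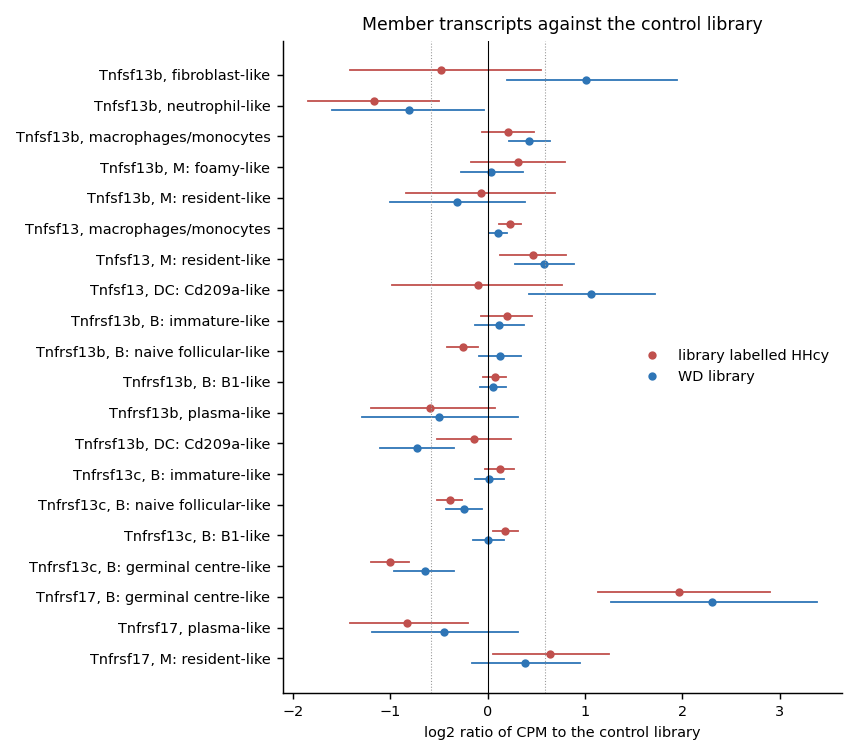
Log2 ratio of CPM to the control library (x axis) for 20 pairs of gene and cell group (y axis; M, macrophage/monocyte; B, B cell; DC, dendritic); points are the ratio of 2 libraries, bars its 95% interval from counting alone, and dotted lines mark 1.5-fold. Germinal centre-like cells stand apart, with BAFF-R below and BCMA above 0 in both comparisons.

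The 7 lists around the pathway, 71 entries with Sdc1 in 2 lists, were counted with the same fold and minimum, in B cells first. None of the 14 receptor adaptors and kinases (TRAF proteins, Map3k14, Syk and others) and none of the 10 NF-kB factors and inhibitors passed in either comparison. Their medians were -0.10 and -0.16 in the library labelled HHcy and 0.00 and -0.02 in WD. Of 7 gamma-secretase subunits, which shed BCMA from the cell surface, 0 passed in the HHcy comparison and 1 in WD. Of 9 ligand-processing and partner genes 1 was higher and 1 lower in the HHcy comparison and 0 in WD. The higher one was Sdc1, a proteoglycan that binds APRIL, at 6.87 against 3.09 CPM. The lower one was Tnfsf12, the ligand TWEAK encoded next to APRIL, at 1.19 against 1.91 CPM.

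The survival list had 4 of 14 genes higher and 1 lower in B cells of the library labelled HHcy, where 6.02% of all genes were higher and 15.1% past the fold. Cr2, a complement receptor, stood at 136 against 68.0 CPM, Fcer2a, the low-affinity IgE receptor, at 196 against 86.3 CPM, and Icosl, a co-stimulatory ligand for T cells, at 46.9 against 19.1 CPM. Bcl2a1b, of the BCL2 family, stood at 179 against 105 CPM, and the kinase gene Pim1 at 414 against 840 CPM. The B cell subsets of the library labelled HHcy were mixed differently, and with the same mix the log2 ratios of Cr2, Fcer2a and Icosl went from 1.0, 1.19 and 1.30 to -0.07, 0.17 and 0.36. These genes mark naive cells: Cr2 was at 230, 207 and 193 CPM in naive cells and at 13.2, 20.3 and 13.6 CPM in B1-like cells. In WD only Bcl2a1a of this list passed, at 3.12 against 1.18 CPM.

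In the plasma cell and class-switch list 2 of 7 genes were higher and 2 lower in B cells of the library labelled HHcy, and 1 higher and 2 lower in WD. Jchain had log2 ratios of 1.39 and 0.88, which were 1.46 and 1.47 with the same mix of subsets. Germinal centre-like cells held 1982, 7893 and 1847 of the 2130, 8507 and 1969 Jchain UMIs of B cells (control, HHcy, WD). Of these, 1085, 6021 and 1620 lay in the 3, 12 and 4 such cells with a BCMA UMI. The Jchain ratios thus rest on few cells and do not describe B cells at large. Prdm1 had -0.68 and -0.77, which became 0.13 and -0.55. Among other TNF-family survival genes, Ltb, a lymphotoxin subunit, was at 369 against 242 CPM in WD, and 0 of 7 passed in the HHcy comparison. Over all lists, Sdc1 counted in both of its lists, 11 of 68 genes passed in the HHcy comparison and 6 in WD, and 4 and 2 with the same mix. Over all genes 15.1% and 9.14% passed, so the lists lay near the background.

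In macrophages/monocytes the lists gave 6 of 66 genes past the fold in the library labelled HHcy and 5 of 67 in WD, where 10.2% and 11.6% of all genes were. The former included B-lineage genes, with Jchain at 17.8 against 2.92 CPM. In plasma-like cells 18 of 42 genes passed in the HHcy comparison, 6 higher and 12 lower, and under median-of-ratios scaling 8 and 8, where 48.4% of all genes passed. Among the lower ones, as log2 ratios, were Birc3 (-1.39), an inhibitor of apoptosis recruited by TRAF proteins, Nfkb1 (-1.02), an NF-kB subunit, and Syk (-0.99), a kinase. Traf1 was higher at 1.04. In WD 8 of 21 passed, where 36.9% of all genes did, with Bcl2l11, which encodes the pro-apoptotic BIM, at -1.29 and Xbp1, the transcription factor of the secretory programme, at 828 against 1573 CPM. With 11 and 12 plasma-like cells in the control and WD libraries these values rest on few cells.

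The genes whose levels followed each member most closely were found by the Pearson correlation of log2(CPM + 1) over 54 points, 21 cell groups by library. Only genes with at least 20 UMIs in the cell group where the member was highest were candidates. The points share libraries and depth, so r is a description. For BAFF these were Phlda1 (r = 0.78), Igf1 (0.76) and Cxcl1 (0.76). For APRIL they were Metrnl (0.86), Stom (0.85) and Itga5 (0.84). TACI was followed by Dnajc7 (0.84), Ighm (0.81) and Csk (0.81), and BAFF-R by Cd79a (0.91), Vpreb3 (0.90) and Cd79b (0.90). BCMA had the weakest partners, Jchain (0.71), a (0.68; the agouti gene) and Ighv1-78 (0.65). Cd79a, Cd79b, Vpreb3 and Jchain belong to the marker lists that named the cell groups, so their rank was partly set by the naming.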

How the data were processed

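Per the labels, live CD45+ cells of mouse aortas were sequenced with Chromium 3′ v3 chemistry, 1 library per group. The values are UMI counts per gene and barcode, as deposited. The matrices come from cellranger 4.0.0 per the file headers, while the submitters' processing notes name Cell Ranger 2.2.0 and mm10. No column belonged to another sample (0 left unused).

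Barcodes with at least 200 genes and at most 10% mitochondrial UMIs were kept. Barcodes with at least 6 B, 6 T/NK, 8 myeloid, 7 neutrophil or 7 stromal markers of a second lineage were left out as doublets (3716). Cells were clustered over the 3 libraries (2000 variable genes without the 5 members, 30 principal components, 20 neighbours, Leiden resolution 1) in Python 3.11.15 with NumPy 2.4.6, SciPy 1.17.1, pandas 2.3.3, scikit-learn 1.9.0, igraph 0.11.9 and leidenalg 0.10.2. Clusters were named from at least 3 markers seen in at least 25% of cells. The doublet limits and a naming score limit of 0.6 were set after the data were seen. The members and lists were chosen with earlier results of these data known.

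UMIs were summed by class and library and given as CPM with exact Poisson intervals, shares of cells with Clopper-Pearson intervals, and ratios with conditional binomial intervals, all at 95%. A gene counted past the fold at 1.5-fold with at least 20 UMIs over both libraries. Shares were repeated with cells thinned to 1000 UMIs. A thinned ratio rests on fewer UMIs than the reported one, so its counting error is larger. The ratio intervals and the doublet rule were tried on simulated data. The simulated counts were drawn from the Poisson model that the intervals assume, so they do not test UMIs clumped in single cells. Limits for a count of 0 use 3 counts. Named genes are the members, the list genes past the fold in B or plasma-like cells with at least 50 UMIs (up to 5 per list and direction), and 3 correlated genes per member. The genes named in macrophages/monocytes, the clusters, and the markers set beside BCMA, TACI and BAFF were chosen after their values were seen. The list gene Camlg was not found under that symbol, and 1 list gene is thus without a value. 1 gene of the lists is not reported here by name. Figures were drawn with matplotlib 3.10.9.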

Additional observations from a re-analysis of the deposited data

How the results depend on the processing

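Each ratio of a member to the control library was recomputed under the other settings, 56 ratios and 384 values in all. Of these, 355 stayed inside the counting interval of the reported ratio and 4 changed the sign of a ratio whose interval excluded 0. Of them, only APRIL in conventional dendritic-like cells of WD, with cells thinned (-0.37, from 4 UMIs against 6 in control), was past 1.5-fold as reported. The others were BAFF-R in B cells of WD with the same mix (-0.11) and, with libraries clustered on their own, TACI (0.13) and BAFF-R (0.03) in naive cells (HHcy). None moved outside its interval under Leiden resolution 2, 20% mitochondrial UMIs, median-of-ratios scaling or, an alternative chosen after seeing the data, without the barcodes shared between libraries. Among ratios over whole classes, thinning gave log2 values of -0.41 for TACI and -0.31 for BAFF-R in B cells (HHcy), 0.25 for BAFF-R in B cells (WD), 0.64 for BAFF and 0.24 for APRIL in macrophages/monocytes (HHcy and WD), and -0.47 for BAFF in neutrophil-like cells (HHcy). Clustering each library on its own gave -0.13 and 0.20 for BAFF-R in B cells (HHcy and WD), the same mix of subsets gave -0.019 for TACI (HHcy) and -0.11 for BAFF-R (WD), and keeping mixed-lineage barcodes gave 0.0047 for APRIL in macrophages/monocytes (HHcy). The cause was not tested.

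Counts of genes past the fold were 1888, 1078, 1269, 1523, 1610, 1515, 2605, 1628, 2340, 3041, 2126 and 629, HHcy then WD, in B cells, macrophages/monocytes, conventional dendritic-like, neutrophil-like, fibroblast-like and plasma-like cells. With at least 100 UMIs they were 934, 334, 447, 633, 534, 572, 742, 338, 382, 551, 315 and 51, since fewer genes are counted. With no minimum they were 6835, 5948, 5194, 6234, 6019, 5601, 8121, 6740, 8348, 8812, 8932 and 7249. At a fold of 2 they were 679, 349, 435, 524, 461, 422, 1093, 538, 1032, 1438, 1181 and 272. Median-of-ratios scaling moved the higher share of conventional dendritic-like calls (HHcy) from 63.7% to 50.1%. List genes past the fold came to 4 and 2 in B cells (HHcy and WD) with the same mix, and with at least 100 UMIs to 3 in macrophages/monocytes (WD) and 3 and 1 in plasma-like cells (HHcy and WD).

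Ligand sources depended on the doublet rule. With mixed-lineage barcodes kept, macrophages/monocytes held 61.5%, 40.3% and 53.4% of BAFF UMIs (control, HHcy, WD) and 74.8%, 46.4% and 61.3% of APRIL UMIs, fibroblast-like cells 7.28% of BAFF UMIs (HHcy), and neutrophil-like cells 16.3% and 6.38% (HHcy and WD). With cells thinned, the macrophage share of BAFF was 55.3% (HHcy) and of APRIL 87.3% and 89.7% (control and HHcy), the fibroblast-like share of BAFF 18.8% (WD), and the neutrophil-like share 17.9%, 23.4% and 8.24%. No replicate could be left out, since each group is 1 library. No paired analysis was possible because each group is 1 library.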

Other observations

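Tnfsf12, which encodes TWEAK and neighbours the APRIL gene on chromosome 11, had another distribution than BAFF or APRIL. Fibroblast-like cells held it at 88.9, 111 and 96.9 CPM (control, labelled HHcy, WD) and macrophages/monocytes at 72.6, 63.0 and 85.6 CPM. B cells held 1.91, 1.19 and 1.56 CPM, and plasma-like cells 0, 3 and 0 UMIs. The fibroblast-like levels of TWEAK came from 18, 94 and 156 UMIs, with overlapping intervals (52.7 to 141, 89.7 to 136 and 82.3 to 113 CPM). In the same cells the BAFF intervals of the library labelled HHcy (32.7 to 62.9) and of WD (112 to 148) lay apart. The control values of both genes rest on 31 cells, and their wide intervals leave the spread over the 3 libraries imprecise.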
